A study of Mus musculus with 16 samples.

Results

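Day 12 of dimethyl sulphoxide (DMSO) treatment was compared with day 10 in cultures of P19CL6, an embryonal carcinoma line of the mouse from which DMSO brings out beating heart muscle. The comparison took 5 of the 16 arrays of the series by their titles: day 12 replicates A and C (n = 2) and day 10 replicates A, B and C (n = 3). Both groups were the same unmodified line, plated in medium with 1% DMSO that was renewed at regular intervals until total RNA was taken from the whole culture. They differed in the number of days in DMSO, and no culture kept equally long without DMSO was analysed here. Samples within each group are called independent in the design text, and the letters A, B and C are not explained there. The other 11 arrays (cells growing without DMSO, and days 4, 6 and 8) entered the fit to estimate the spread between replicates and are given where a level at an earlier time helps to read a value. Each value is a log2 GCRMA signal of an Affymetrix probe set, so 1 unit is a 2-fold difference. The probe set with the highest mean represented each gene, and 10802 of 18193 genes exceeded log2 4 on at least 2 of the 16 arrays and were tested.

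During heart development, cardiomyocytes first assemble sarcomeres and calcium stores and later raise ion channel and metabolic genes, while the sinus venosus keeps a separate pacemaker programme that depends on the transcription factor Shox2. Alongside the muscle, the epicardium, an outer epithelial sheet marked by Tcf21, Tbx18 and Wt1, gives rise to fibroblasts and smooth muscle that deposit collagens and proteoglycans. Embryonic red cells with the globins Hbb-y, Hbb-bh1 and Hba-x arise early and transiently from yolk sac mesoderm, and the yolk sac endoderm secretes plasma proteins such as alpha-fetoprotein (Afp). In a mixed culture a change in the share of a cell type and a change in RNA per cell cannot be told apart.

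The arrays were examined before the genes. Heart muscle markers were high on all 5 arrays (Tnnt2, cardiac troponin T, at 12.90 to 14.16), whereas Nkx2-5 reached only 3.89 to 6.33. The control signals differed between the groups. The mean of the 3 18S ribosomal RNA probe sets was 8.04 and 8.69 on day 12 and 6.76, 5.25 and 5.47 on day 10, a difference of 2.54 with no overlap (exact permutation p = 0.1, two-sided, the smallest that 2 against 3 arrays allow; adjusted over 5 control measures 0.5). Both day 12 values also lay above the range of the other 14 arrays, 4.91 to 6.88, a description only, since the comparison was chosen with these control signals known. The mean of the 27 poly-A spike-in probe sets, RNAs added before labelling, was 5.35 and 6.09 on day 12 and 5.33, 4.56 and 4.07 on day 10, a difference of 1.07 (exact permutation p = 0.2, adjusted 0.5). Within letter A the poly-A signal was nearly equal on both days, and within letter C it was higher on day 12. For Actb the 3′ signal exceeded the 5′ signal, a measure of RNA length, by 1.06 and 0.85 on day 12 and by 1.33, 0.76 and 0.74 on day 10. Day 10 replicate A was the highest of the 16 arrays in this measure and carried the day 10 mean of 0.94; replicates B and C lay below both day 12 arrays. The same measure of Gapdh had a mean of -0.30 on both days. The hybridization spike-ins followed the letter, not the day: the 5 arrays lettered A had means of 8.86 to 9.28 and the other 11 arrays of 9.53 to 10.34. The part of these control signals in the gene results was not tested.

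**Figure D1:**
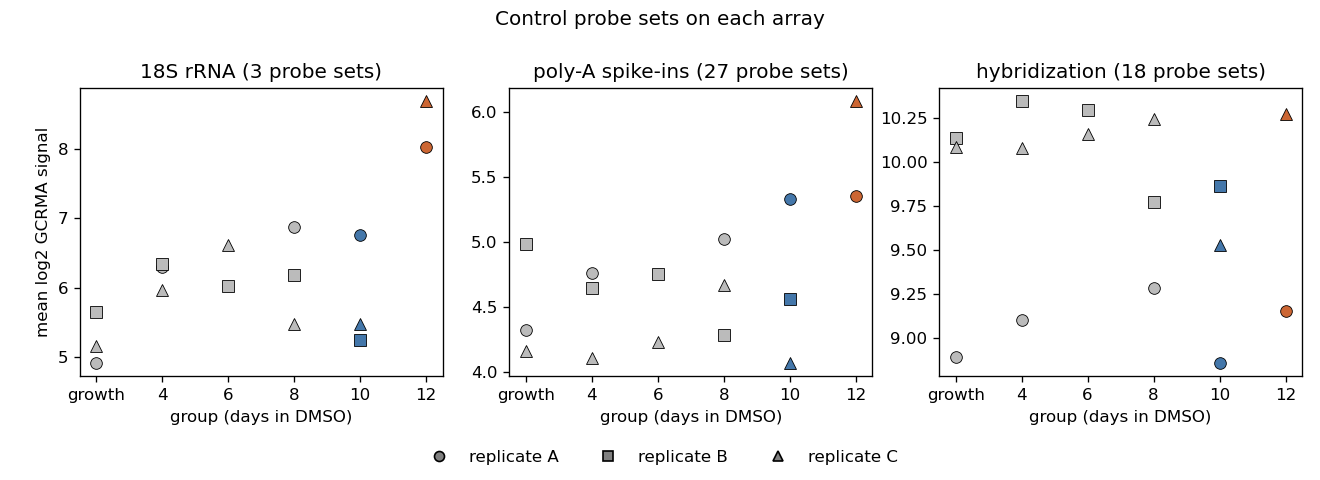
Mean log2 signal of 3 kinds of control probe sets (vertical axes) on each of the 16 arrays, ordered by days in DMSO; symbols give the replicate letter, blue marks day 10 and orange day 12. The 18S signal of both day 12 arrays (8.04 and 8.69) lies above all others, the poly-A signal of day 12 replicate A (5.35) is close to that of day 10 replicate A (5.33), and the hybridization signal separates letter A from B and C.

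Across all genes, day 12 brought many more rises than falls. Of 10802 genes, 311 rose and 20 fell by at least 1 on the log2 scale with limma and a Benjamini-Hochberg adjusted p under 0.05, which is 2.88% and 0.185% of the genes tested (3.06% together). The median difference over all genes was 0.03, over the genes that rose 1.66, and over those that fell -1.54. In 103 genes the rise was at least 2 log2 units, and 4 genes fell by that much. Day 12 was the highest of the 6 group means for 280 of the 311 genes that rose, while it was the lowest for 8 of the 20 that fell. On day 10 every array was below log2 4 for 100 of the 311, so their folds are given as lower bounds over that limit ("at least"). Because the filter asked for only 2 arrays, 80 tested genes passed through the day 12 arrays alone and could only be higher there; 75 of them are among the 311. They include 5 fibroblast and matrix, 4 epicardial and 2 ion channel genes and 1 smooth muscle gene of the lists described here. The white cell, cell cycle inhibitor, hypoxia, imprinted, Wnt and epithelial lists held 1 each. These were Pf4, Cdkn2c, Car9, Igfbp7, Rspo1 and Krt7, of which Rspo1 and Krt7 are also among the epicardial genes. All 331 calls had groups that did not overlap, against 33.6% of all genes tested. Leaving out the day 10 arrays A, B or C kept 303, 228 or 213 of the 331 calls. Day 12 has 2 arrays, and with 1 left out the other is assumed to vary like the remaining groups: 133 calls were kept without replicate A and 54 without replicate C, with 74 no longer tested in either case. With the replicate letter as a block 289 genes rose and 17 fell, and calls that this block ended are given with their genes. In total 42 calls were kept in all 5 leave-outs, 41 of them higher and 1 lower (Hbb-y).

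**Figure D2:**
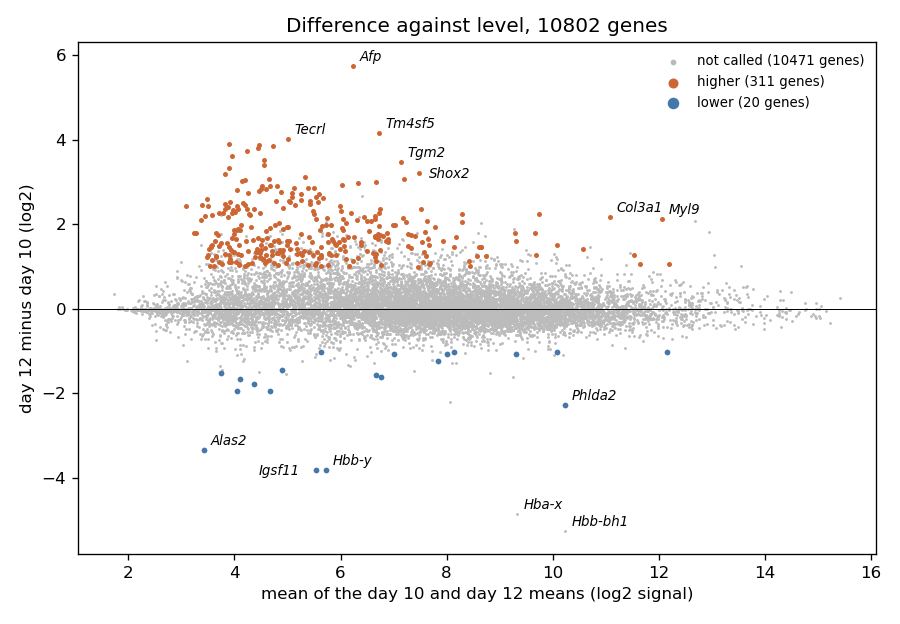
Difference between the day 12 and day 10 means (vertical axis, log2) against the mean of both (horizontal axis, log2 signal) for 10802 genes, 1 point a gene. The 311 genes called higher (orange) reach 5.76 (Afp), the 20 called lower (blue) reach -3.81 (Igsf11 and Hbb-y), and the embryonic globins Hbb-bh1 and Hba-x, at -5.25 and -4.85, are grey because they did not pass the test.

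The gene with the largest rise was Afp, the fetal plasma carrier protein of yolk sac and liver. Its signal was 4.35, 2.75 and 2.99 on day 10 and 8.99 and 9.25 on day 12, a difference of 5.76 (SE 0.33, adjusted p = 1.43e-07). It had stayed between 2.77 and 2.86 in the means of growing cells and days 4 to 8, and its 3 probe sets rose by 3.51 to 5.76. Tm4sf5, a membrane protein of the tetraspanin-like family, was at 5.80, 4.09 and 4.03 on day 10 and at 9.41 and 8.21 on day 12 (difference 4.17, SE 0.49, adjusted p = 0.00013). Tgm2, tissue transglutaminase, which cross-links matrix proteins and is a known retinoic acid target, was at 5.78, 4.97 and 5.45 and then at 9.24 and 8.52 (difference 3.48, SE 0.29, adjusted p = 4.08e-06). All 5 Tgm2 probe sets were higher, by 0.95 to 4.09. Enpep, an aminopeptidase that cleaves angiotensin, rose 8.49-fold from a mean of 5.65 ± 0.70 (SD, n = 3) to 8.74 ± 0.02 (SD, n = 2). Groups without overlap were a condition for a place among the largest rises and falls, so the separation of these 4 genes is no separate result.

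Tecrl, a reductase-like protein of heart muscle whose loss causes arrhythmia, was below log2 4 on every earlier array and stood at 6.85 and 7.18 on day 12, at least 8.09-fold higher; it passed the filter through the day 12 arrays alone, so no test is given for it. Lcp1, an actin-bundling protein of white blood cells, rose at least 7.39-fold, to 6.94 and 6.83, and passed the filter in the same way. Ndufa4l2, a hypoxia-responsive mitochondrial protein, rose 5.78-fold, and Gucy1a1, a subunit of the nitric oxide receptor guanylate cyclase, rose 6.54-fold. Rises and falls were ranked by the difference after values under log2 4 were set to 4, so that dim values did not decide the order. The remaining names among the 15 largest rises were Shox2, Col6a1, Efemp1, Lum and Sparcl1, described with their groups below, and Bace2 and Ccdc85a. Bace2, a protease related to the beta-secretase, had probe sets that disagreed, from 0.18 to 2.92, and its call ended without day 12 replicate A (adjusted p = 0.0764) or C (0.105). Ccdc85a rose 6.15-fold, and its call ended without day 12 replicate C (adjusted p = 0.0661). Of the 15 largest rises, 10 were kept without day 12 replicate A and 8 without C, with 3 not tested in each case. Day 10 replicate A was the highest of the day 10 arrays in 58.8% of the 311 genes that rose, against 45.5% of all genes.

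**Figure D3:**
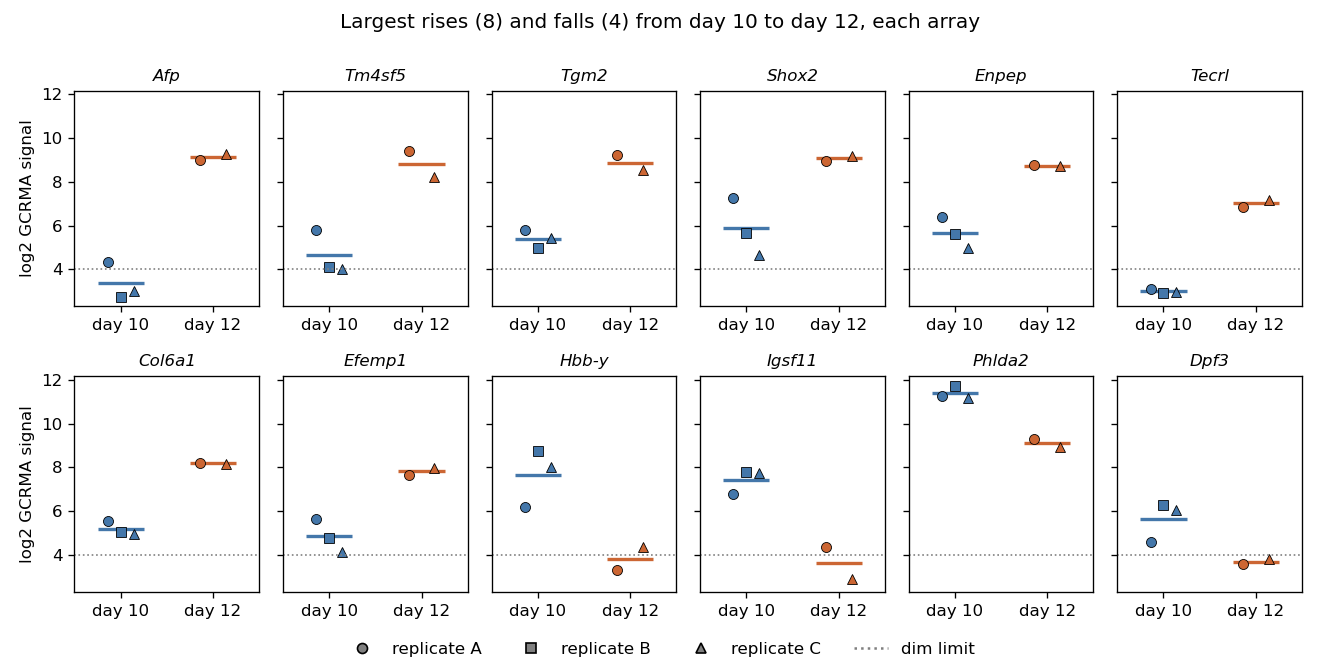
Log2 GCRMA signal (vertical axis) of the 8 largest rises and 4 largest falls on each day 10 array (blue) and day 12 array (orange); symbols give the replicate letter, bars the group mean, and the dotted line the limit of log2 4 below which a probe set is called dim. Groups without overlap were a condition for being shown. For all 8 rises the highest day 10 point is replicate A (for Shox2 7.27, against 5.68 and 4.67).

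Sarcomere genes, which build the contractile apparatus, rose in part, and most of the others had positive differences. Of 34 tested members 6 rose (17.6%, against 2.88% of all genes) and none fell. Of the differences 30 were above 0, and the median was 0.74 against 0.03 over all genes. The genes that rose were Acta1 (skeletal alpha-actin, also made by the fetal heart), Actn2 (alpha-actinin of the Z-disc), Myl3 (a ventricular light chain), Tnnc1 and Tnni3 (cardiac troponins C and I) and Tnnt1 (slow troponin T). Tnni3, the adult heart isoform of troponin I, was at 9.82, 8.82 and 9.35 on day 10 and at 11.24 and 10.46 on day 12 (difference 1.52, SE 0.28, adjusted p = 0.00583). Tnni1, the fetal isoform, was at 13.65 to 13.69 on day 10 and at 13.25 and 13.16 on day 12, a difference of -0.47 that did not pass the test (adjusted p = 0.806). Acta1 rose 3.51-fold from 6.76, 6.97 and 6.35 to 8.80 and 8.21. Tnnt1 rose 4.44-fold to 6.70 and 6.95, below the mean of 9.61 in growing cells.

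Other prominent heart muscle genes had differences of similar size but did not pass the test. Myh6, the atrial and adult heavy chain, was at 11.84, 12.13 and 10.99 on day 10 and at 13.61 and 13.85 on day 12 (difference 2.08, SE 0.74, adjusted p = 0.163). A probe set shared by Myh6 and Myh7 passed limma among the 535 tested probe sets of several genes (difference 1.86, adjusted p = 0.00111). It was at 6.49, 7.73 and 7.05 on day 10 and at 8.86 and 9.04 on day 12. Actc1, cardiac alpha-actin, was at 12.06, 12.20 and 11.87 and then at 13.92 and 13.79 (difference 1.82, SE 0.70, adjusted p = 0.199). Ldb3 (difference 1.89), Myl2, the ventricular light chain (1.77), Ttn, titin (1.30), and Tnnt2 (1.02) were not called either, and the 3 Tnnt2 probe sets ranged from 1.02 to 2.37. The spread in the fit is shared by all 6 groups, and the day 8 arrays differed widely. Myh6 was lowest on day 8 replicate A, at 3.07, but the other day 8 arrays, at 4.48 and 7.0, also lay far apart. The mean over the 39 sarcomere genes on the array was 4.27 on day 8 A, 5.76 on B and 6.45 on C. Without day 8 replicate A 11 sarcomere members rose, with adjusted p = 0.0415 for Myh6, 0.0418 for Actc1 and 0.0401 for Ldb3. Myl2 was called without day 10 replicate B (adjusted p = 0.0347) or day 12 replicate A (0.0276) or with the replicate block (0.0255). Actn2 lost its call without day 12 replicate A (adjusted p = 0.0793) or C (0.161), Tnni3 without day 12 replicate A (0.0792), and Tnnc1 without any of day 10 B (0.0947), day 10 C (0.119), day 12 A (0.143) and day 12 C (0.238).

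Several contractile genes share the CArG box, the binding sequence of serum response factor, a known activator of muscle actins. It was searched on both strands in the 250 bases before the start of each gene (RefSeq, GRCm38) and was found in 1.47% of 32851 promoters. Among the tested genes with a promoter entry it was present in 7 of 29 sarcomere genes (24.1%), in 4 of 18 smooth muscle genes (22.2%), in 10 of the 240 genes that rose (4.17%) and in 130 of 8794 in all (1.48%). The promoters of Acta1 (chr8:123894776-123895025, minus strand), Actc1 (chr2:114052876-114053125, minus strand), Myl3 (chr9:110763428-110763677, plus strand) and Myl9 (chr2:156775214-156775463, plus strand) are printed to show the box, in capitals, in genes of both muscle kinds whose values are given here. Counted from the start of the gene, the box begins at -73, -47, -85 and -161, in that order.
Acta1: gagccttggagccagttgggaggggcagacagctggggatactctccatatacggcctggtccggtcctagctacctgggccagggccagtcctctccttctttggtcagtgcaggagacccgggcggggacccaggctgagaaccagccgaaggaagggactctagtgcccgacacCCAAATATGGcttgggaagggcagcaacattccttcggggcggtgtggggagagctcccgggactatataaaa
Actc1: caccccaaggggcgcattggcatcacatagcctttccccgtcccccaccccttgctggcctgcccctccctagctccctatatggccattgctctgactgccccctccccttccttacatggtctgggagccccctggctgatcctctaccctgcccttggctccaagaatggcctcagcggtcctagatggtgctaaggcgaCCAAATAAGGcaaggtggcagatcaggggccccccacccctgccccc
Myl3: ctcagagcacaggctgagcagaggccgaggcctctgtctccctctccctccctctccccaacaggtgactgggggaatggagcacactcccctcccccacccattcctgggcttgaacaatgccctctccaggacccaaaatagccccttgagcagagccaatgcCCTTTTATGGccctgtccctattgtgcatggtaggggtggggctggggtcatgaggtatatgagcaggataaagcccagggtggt
Myl9: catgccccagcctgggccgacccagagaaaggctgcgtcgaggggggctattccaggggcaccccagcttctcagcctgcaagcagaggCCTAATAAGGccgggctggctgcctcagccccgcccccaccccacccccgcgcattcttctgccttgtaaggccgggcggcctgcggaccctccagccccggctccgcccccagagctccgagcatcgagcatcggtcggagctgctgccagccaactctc
Each of these 4 promoters held 1 box. The letters TATAAA, searched in the same way, were found in 12.4% of all promoters, in 666 of the 8794 tested genes (7.57%) and in 5 of the 29 sarcomere genes (17.2%), among them Acta1. Whether serum response factor was bound there was not measured.

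Of 26 tested genes for ion channels and calcium handling 6 rose (23.1%, against 2.88% of all genes), with none lower and a median of 0.56. They were Fxyd1 (phospholemman, a regulator of the sodium pump), Kcnj5 (a subunit of the acetylcholine-gated potassium channel of atrium and sinus node), Trdn (triadin, which anchors calsequestrin at the calcium release site), Ryr2 (the calcium release channel itself), Cav3 (caveolin of muscle) and Casq1 (the skeletal form of calsequestrin). Ryr2 was at 7.60, 7.37 and 6.81 on day 10 and at 9.16 and 9.46 on day 12, a 4.14-fold rise (adjusted p = 0.0148). Trdn rose 5.17-fold, from 7.07, 5.86 and 6.04 to 8.78 and 8.61. Fxyd1 was dim on all earlier arrays and reached 6.20 and 5.48, at least 3.58-fold higher. Fxyd1 and Casq1 had passed the filter through the day 12 arrays alone. With no filter on dim values 7 of 35 genes of this list rose and the median was 0.41. The calcium pump Atp2a2 (difference -0.11) and its regulator Pln (0.22) had overlapping groups on the probe sets that represent them, but their probe sets disagreed: the 5 of Atp2a2 ranged from -0.11 to 1.32 and the 3 of Pln from 0.02 to 1.02. Casq2, the heart form of calsequestrin, had an adjusted p of 0.0022 but a difference of 0.85, under the required 1. Without day 12 replicate A or C, 1 of the 6 calls was kept and 2 were not tested: Ryr2 then had adjusted p = 0.0646 or 0.226, Kcnj5 0.05 or 0.0524 and Cav3 0.12 or 0.122, and Ryr2 also lost its call without day 10 replicate C (0.0694). Of 8 tested genes of the hormone and load response, 2 rose (25%). They were Ankrd1, a nuclear and sarcomeric protein induced by stretch (3.94-fold), and Smpx, a small muscle protein (2.17-fold). Both calls ended without day 12 replicate C (adjusted p = 0.111 and 0.545), that of Ankrd1 also without day 10 A (0.0639) and that of Smpx without day 10 B (0.0527) or C (0.0842) or with the replicate block (0.0726), while the natriuretic peptides Nppa and Nppb were too dim to be tested.

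Among the heart transcription factors, 2 of 29 tested members rose (6.9%, against 2.88% of all genes), Shox2 and Tbx18. None fell, and the median was 0.28. Shox2, required for the sinus node, was dim before day 10 (means of 2.46 to 2.48), was at 7.27, 5.68 and 4.67 on day 10 and reached 8.97 and 9.20 on day 12 (difference 3.22, SE 0.48, adjusted p = 0.00127). Tbx18, which builds the sinus node head and the epicardium, was at 7.06, 5.19 and 4.49 and then at 7.79 and 7.92 (difference 2.28, SE 0.53, adjusted p = 0.0299). In both genes day 10 replicate A was the highest of its group and nearest to day 12. Shox2 lost its call without day 12 replicate C (adjusted p = 0.0524), and Tbx18 without day 10 B (0.237) or C (0.0983) or day 12 A (0.104) or C (0.21), and with the replicate block (0.0625). The pacemaker list, which shares these 2 genes, had 4 rises among 14 tested members (28.6%) and a median of 0.71. Of its differences 12 were above 0, and the lowest was that of Isl1 (-0.77). The other rises of the pacemaker list were Kcnj5, above, and Vsnl1, a neuronal calcium sensor also made by the sinus node. Vsnl1 was at 5.18, 2.43 and 3.61 on day 10 and 6.64 and 5.96 on day 12. Vsnl1 lost its call without day 12 A (adjusted p = 0.0997) or C (0.0916). Early mesodermal and second heart field factors were not called: Hand1 was at 8.03, 9.52 and 9.92 and then at 6.86 and 7.06 (difference -2.19, adjusted p = 0.164), and Isl1 differed by -0.77 (adjusted p = 0.532). Nkx2-5 (difference 1.17), Tbx5 (1.06) and Hopx (2.06), factors of working muscle, did not pass the test (adjusted p = 0.0681, 0.0577 and 0.0531). They passed with 1 day 10 array left out: A for Nkx2-5 (adjusted p = 0.0232) and Hopx (0.0493), and B for Tbx5 (0.0049).

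**Figure D4:**
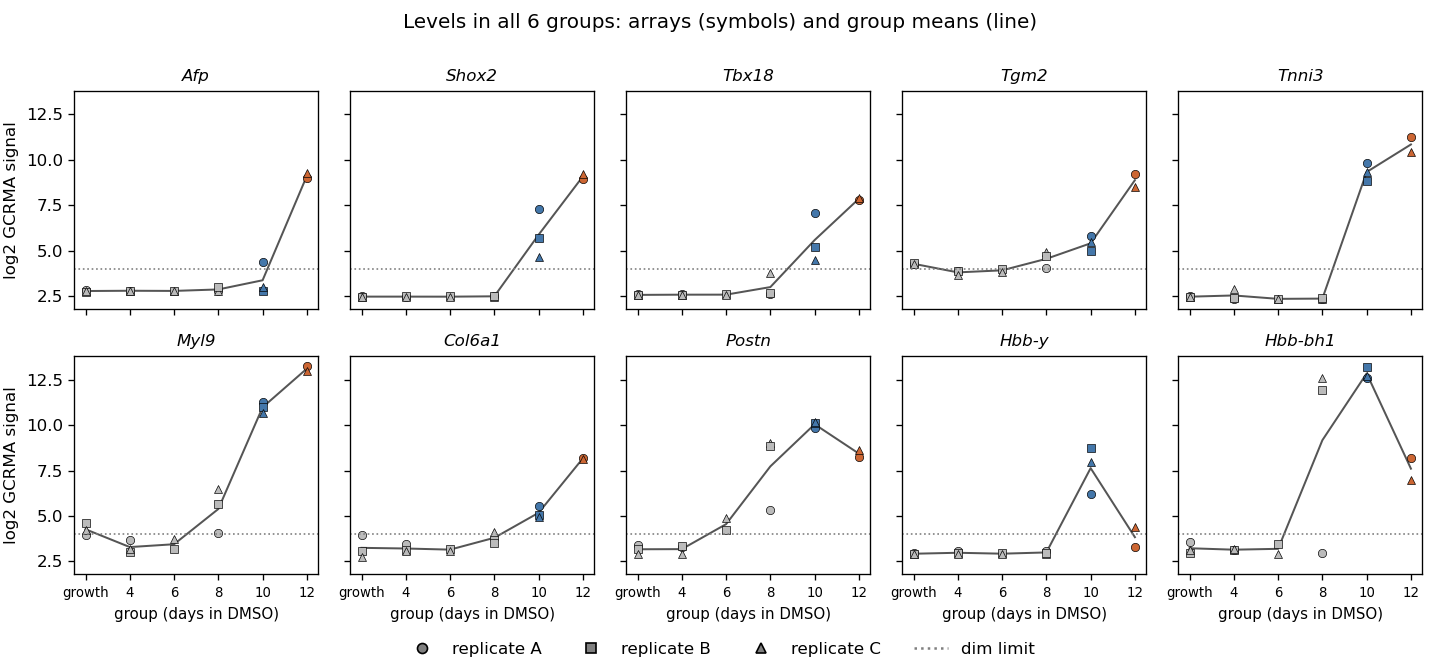
Log2 GCRMA signal (vertical axis) of 10 genes in growing cells and after 4 to 12 days in DMSO (horizontal axis); symbols are arrays by replicate letter, the line joins the group means and the dotted line is the limit of log2 4. Afp leaves the dim range only on day 12 apart from 1 day 10 array (4.35), Shox2, Tbx18, Tnni3, Myl9 and Col6a1 climb through day 10, Postn and the globins Hbb-y and Hbb-bh1 peak on day 10, and day 8 replicate A is far below its partners for Hbb-bh1 (2.95 against 11.96 and 12.63).

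Smooth muscle genes rose in 3 of 23 tested members (13%, against 2.88% of all genes), none fell, and the median was 0.56. Of the 23, Actg2 had passed the filter through the day 12 arrays alone. With no filter on dim values 2 of 29 rose and the median was 0.49. Myl9, the regulatory light chain of smooth muscle, was at 11.28, 11.01 and 10.68 on day 10 and at 13.27 and 12.98 on day 12, a 4.39-fold rise (adjusted p = 0.0303). Actg2, the enteric smooth muscle actin, was dim on all earlier arrays and at 5.95 and 6.55 on day 12, at least 4.77-fold higher. Cnn1, calponin, rose 4.57-fold. Acta2, the vascular smooth muscle actin that the early heart also makes, had a difference of 0.99 and Tagln one of 1.18, neither called (adjusted p = 0.664 and 0.572). The other probe set of Acta2 gave 2.00. The defining heavy chain Myh11 was too dim to be tested. The summed signal of the list (log2 of the sum of linear signals) was 13.93 to 14.26 on day 10 and 14.94 and 15.03 on day 12. Synpo2 had 2 probe sets of opposite sign (-1.23 and 0.95). Myl9 lost its call without day 10 B (adjusted p = 0.0814) or C (0.113) or day 12 A (0.139) or C (0.211) or with the replicate block (0.055), and Cnn1 without day 12 A (0.0862) or C (0.0528).

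Fibroblast and matrix genes rose in part. Of 46 tested members 12 rose (26.1%, against 2.88% of all genes), none fell, and the median was 0.51. Of the 46, 5 had passed the filter through the day 12 arrays alone; with no filter on dim values 11 of 53 rose and the median was 0.36. Collagen VI, a beaded-filament collagen of 3 chains, rose as a set: Col6a1 was at 5.54, 5.04 and 4.96 on day 10 and at 8.22 and 8.14 on day 12 (difference 3.00, SE 0.30, adjusted p = 2.75e-05), while Col6a2 and Col6a3 went from the dim range to 6.40 and 5.99, and to 5.92 and 5.93. Small proteoglycans that bind collagen rose too. Lum, lumican, was dim before and reached 7.28 and 6.04, at least 6.33-fold higher. Dcn, decorin, rose 4.38-fold to 6.58 and 6.61, and Bgn, biglycan, rose at least 2.64-fold. Col3a1, a fibrillar collagen of elastic tissue, was at 9.66, 10.37 and 9.95 and then at 12.06 and 12.26, a 4.49-fold rise. Efemp1, an elastic fibre fibulin, rose 7.84-fold. Fbln2 (fibulin 2), Mmp2 (a gelatinase), Tgm2 and Tcf21 completed the 12.

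Some matrix genes of the early cushion and mesenchyme had negative differences that did not pass the test. Postn, periostin, was at 9.84, 10.13 and 10.20 on day 10 and at 8.26 and 8.62 on day 12 (difference -1.62, adjusted p = 0.305). Tnc, tenascin C (difference -1.51), Col1a2, a chain of collagen I (-1.28), and Has2, the hyaluronan synthase of the heart cushions (-1.15), also had all day 12 arrays below those of day 10. Such separation was found in 9 of the 46 tested members and in 14.1% of all genes, so it says little by itself. Without day 8 replicate A, in which Postn was at 5.32 against 8.89 and 9.0, 3 members of the list fell, among them Postn (adjusted p = 0.00114) and Col1a2 (0.0289). The 2 probe sets of Col1a1, a defining fibroblast gene, gave 0.24 and 1.65, and the gene was not called (adjusted p = 0.0818) except without day 12 replicate A (0.00575). Col3a1 lost its call without day 12 A (adjusted p = 0.0641) or C (0.19), Mmp2 without day 12 A (0.0682) or C (0.0837), and Fbln2 without day 10 B (0.0847) or C (0.0578) or day 12 A (0.119) or C (0.183). Of the 12 calls, 4 were kept without day 12 replicate A and 4 without C, with 5 not tested in each case. Sparcl1, a matricellular protein related to osteonectin that is outside the list, was at 3.85, 4.37 and 3.62 on day 10 and 6.64 and 6.98 on day 12, but had been at 6.52 in the day 6 mean, and its call ended without day 12 A (adjusted p = 0.0542) or C (0.175).

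Epicardial genes rose in 7 of 17 tested members (41.2%, against 2.88% of all genes), none fell, and the median was 1.07. Of the 17, 4 had passed the filter through the day 12 arrays alone; with no filter on dim values 6 of 23 rose and the median was 0.64. The median was 0.94 without day 12 replicate A and 0.51 without C, each over 13 genes. Tcf21, a factor of epicardium and cardiac fibroblasts, was at 2.41, 2.74 and 2.51 on day 10 and stood at 6.28 and 6.42 on day 12, at least 5.11-fold higher. Krt7, a keratin of simple epithelia and mesothelium, was at 2.60, 2.49 and 3.30 and then at 6.32 and 6.34, at least 5.02-fold higher. Sema3d, a guidance molecule of the epicardium, rose at least 3.11-fold, Rspo1, a Wnt-enhancing ligand, at least 2.27-fold, and Aldh1a2, the enzyme that makes retinoic acid in the epicardium, at least 2.01-fold. Gpm6a, a membrane glycoprotein of mesothelium and neurons, rose 3.78-fold, and Tbx18 is given above. The defining markers were already present on day 10: Wt1 was at 8.07, 7.04 and 7.01 and then at 8.05 and 8.61 with overlapping groups (difference 0.96), and Upk3b was at 9.76 to 10.43 and then at 10.59 and 10.51 (difference 0.47). The keratins Krt8 (-0.92) and Krt18 (-0.67), also made by many other epithelia, were not called. The summed signal of the list was 13.29 to 13.64 on day 10 and 13.21 to 13.42 on day 12, and these ranges overlapped. Of the 7 calls, 4 were no longer tested without day 12 replicate A, and 4 without C. Aldh1a2 lost its call without day 12 replicate C, where its difference was 1.75, and the losses of Tbx18 are given above.

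**Figure D5:**
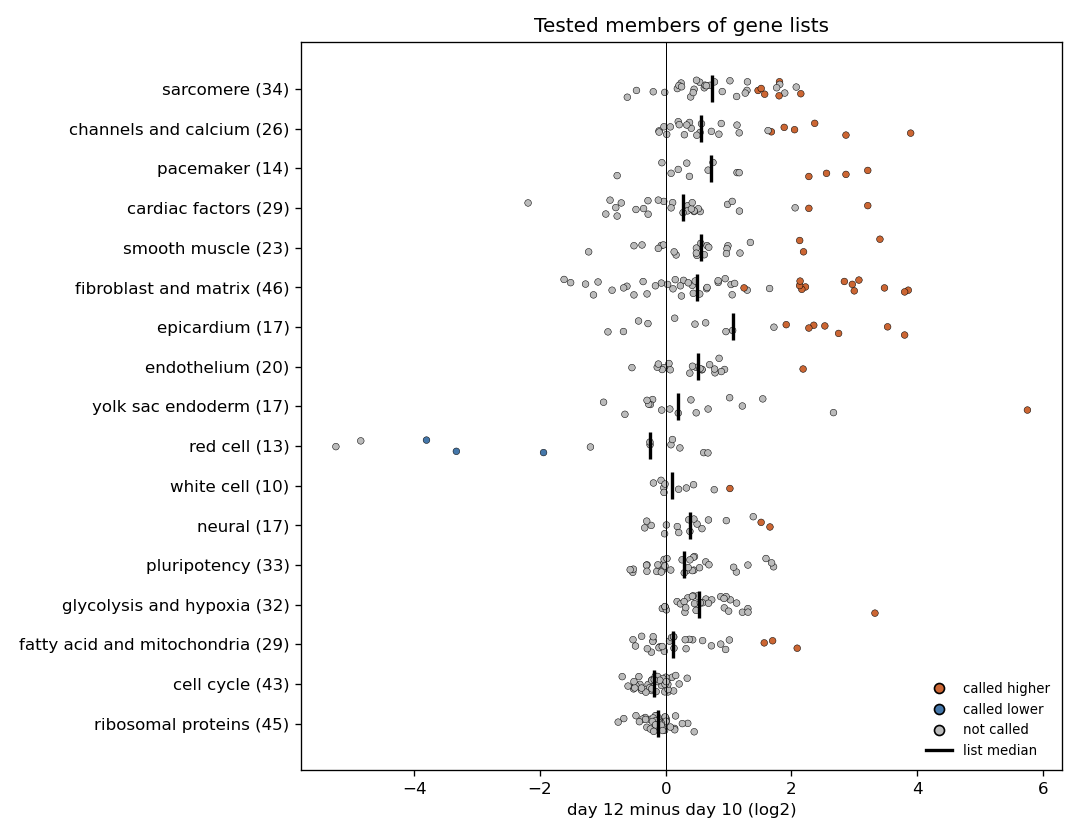
Difference between day 12 and day 10 (horizontal axis, log2) for the tested members of 17 gene lists (number tested in brackets); each point is a gene, coloured by its call, and the black bar is the list's median. The epicardial median lies at 1.07 and the sarcomere median at 0.74, the red cell list holds the 3 falls and the uncalled globins at -5.25 and -4.85, and no cell cycle or ribosomal protein gene is called.

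Among 17 tested yolk sac endoderm genes Afp was the 1 call (5.88%, against 2.88% of all genes). Their median was 0.20, and 23 of the 40 members on the array were too dim to be tested, among them Alb, Hnf4a and Foxa2. Apob, the lipoprotein scaffold, was at 4.63, 4.92 and 5.68 on day 10 and at 7.48 and 8.02 on day 12, a difference of 2.67 that did not pass the test (adjusted p = 0.132) except with the 5 compared arrays alone (0.018). Apoa1 (difference 1.54), Rbp4, the retinol carrier (1.22), and Ttr, transthyretin (1.02), overlapped between the groups, since day 10 replicate C was high in each: Apoa1 was at 7.90 there and at 5.42 and 5.67 on A and B. Without that array Apoa1 was called (adjusted p = 0.000161). The 4 probe sets of Apoa1 had differences of 1.54 to 2.84. Apoa1 was also called with all probe sets of a gene averaged, or without probe sets ending in _x_at or _s_at. In each of these settings 2 of the 17 list members rose. The summed signal of the list was 10.82 to 12.06 on day 10 and 11.93 to 12.18 on day 12.

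Genes of embryonic red cells had the largest negative differences. Of 13 tested members 3 fell (23.1%, against 0.185% of all genes), Hbb-y, Alas2 and Slc4a1. None rose, and the median was -0.25. Hbb-y, an embryonic beta-like globin, was at 6.18, 8.74 and 7.99 on day 10 and at 3.29 and 4.37 on day 12 (difference -3.81, SE 0.51, adjusted p = 0.000526), and its 2 probe sets gave -3.50 and -3.81. Alas2, the red cell enzyme that starts haem synthesis, was at 4.45, 5.47 and 5.34 and then dim at 1.74 and 1.77, at least 2.12-fold lower. Slc4a1, the band 3 anion exchanger of the red cell membrane, was at least 2.02-fold lower. The most abundant globins differed more but were not called: Hbb-bh1 was at 12.62, 13.23 and 12.73 on day 10 and at 8.21 and 7.01 on day 12 (difference -5.25, SE 1.92, adjusted p = 0.175), and Hba-x at 11.15, 12.20 and 11.92 and then at 7.04 and 6.76 (difference -4.85, SE 1.84, adjusted p = 0.191). Their standard errors came with day 8 replicate A, where Hbb-bh1 was at 2.95 and the other day 8 arrays at 11.96 and 12.63. Without it the adjusted p was 7.52e-07 for Hbb-bh1 and 2.29e-07 for Hba-x, and with the 5 compared arrays alone 0.00439 and 0.00393.

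Probe sets shared by several globin genes fell too. The probe set of Hba-a1 and Hba-a2, the fetal and adult alpha-globins, was at 8.33, 8.79 and 8.42 on day 10 and at 2.99 and 1.74 on day 12 (difference -6.15, adjusted p = 0.0235). That of the adult beta-globins (Hbb-b1, Hbb-b2, Hbb-bs and Hbb-bt) was at 5.94, 5.72 and 5.25 and then at 2.11 and 2.09 (difference -3.54, adjusted p = 4.93e-07). The summed signal of the red cell list was 13.79 to 14.30 on day 10 and 12.46 to 12.66 on day 12. The transferrin receptor Tfrc, which many other cells also make, had a difference of 0.11, and Gata1 and Klf1, the factors that define the lineage, were too dim to be tested. Alas2 lost its call without day 12 replicate C (adjusted p = 0.0638), and Slc4a1 without day 10 B (0.0947) or day 12 A (0.132) or C (0.21).

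The other falls were few. Igsf11, an immunoglobulin-like adhesion protein, was at 6.79, 7.78 and 7.73 on day 10 and at 4.37 and 2.88 on day 12 (difference -3.81, SE 0.69, adjusted p = 0.00591). It had appeared on day 6 (mean 5.39) and day 8 (8.13). Phlda2, an imprinted growth-restraining gene of placenta and extra-embryonic tissue, was at 11.24, 11.72 and 11.18 and then at 9.29 and 8.91 (difference -2.28, SE 0.40, adjusted p = 0.00487), after a mean of 13.10 on day 4. Dpf3, a chromatin reader subunit of the BAF complex that acts in heart and muscle, was at least 3.11-fold lower. The rest of the 15 largest falls were Cthrc1 (a secreted collagen triple helix protein, -1.60), Cfc1 (Cryptic, a Nodal co-receptor, -1.56), Chtf18 (a replication clamp loader subunit, -1.44), Mrap (an accessory protein of the ACTH receptor, -1.78), Mxra8 (a membrane protein of mesenchyme, -1.22), Foxo4 (a forkhead factor, -1.07), Elovl1 (a fatty acid elongase, -1.06), Pex19 (a peroxisome import factor, -1.05), Fdps (an enzyme of sterol synthesis, -1.03) and Gas5 (a host of small nucleolar RNAs, -1.03). Outside them Wnt2, a ligand of the early heart field, was at least 1.90-fold lower, and Plaat1, Prcp and Ddt also fell. Of the 20 falls, 16, 11 and 7 were kept without day 10 A, B and C, 12 without day 12 A and 2 without day 12 C (Hbb-y and Mrap); Igsf11 then had adjusted p = 0.19, Phlda2 0.135 and Dpf3 0.17. With the replicate block the calls of Cthrc1 (adjusted p = 0.0825), Cfc1 (0.0575), Foxo4 (0.0541), Pex19 (0.0664), Fdps (0.0736) and Wnt2 (0.0795) ended, and the difference of Gas5 came to just under 1.

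Lists of other lineages that a culture could hold had 1 or 2 calls each, all higher, against 2.88% of all genes tested. Of 20 tested endothelial genes (5% called), Npr3, the natriuretic peptide clearance receptor of endocardium, rose (4.55-fold, from 4.9, 4.83 and 6.34 to 6.87 and 8.21), and its call ended without day 10 B (adjusted p = 0.0524) or day 12 C (0.302). The defining endothelial genes overlapped between the groups: Kdr was at 6.47 to 7.27 and then at 7.15 to 7.29, Cdh5 at 2.48 to 4.88 and then at 3.80 to 4.18, and Pecam1 at 2.65 to 4.42 and then at 3.62 to 4.61. Of 10 tested white cell genes (10% called) Pf4 rose, to 4.01 and 4.24, just over the dim limit. It had passed the filter through the day 12 arrays alone, and its call ended without day 10 C, where its difference was 0.88. Ptprc and Spi1 were too dim to be tested. Map2, a neuronal microtubule protein, and Zic1, a neural and dermomyotome factor, rose among 17 tested neural genes (11.8% called; 2.87-fold and 3.16-fold), and both calls ended without day 12 C (adjusted p = 0.21 and 0.133). Tubb3 (difference 0.68) and Stmn2 (0.96), the defining neuronal markers, were not called. Of the skeletal muscle list 5 of 27 members were bright enough to test, and 40% of these were called; Myl1, a light chain also made by embryonic heart, rose 2.87-fold and Actn3 at least 2.17-fold, while Myod1 and Myog were too dim. Myl1 lost its call without day 10 C (adjusted p = 0.0565) or day 12 A (0.119), and Actn3 without day 10 B (0.0645) or C (0.0687) or day 12 A (0.146) or C (0.111).

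Some signalling genes rose. Called were 14.3% of the TGF-beta, 13.3% of the Wnt, 21.4% of the retinoid and 12% of the imprinted and IGF list, against 3.06% of all genes. Rspo1 of the Wnt list and Igfbp7 of the imprinted and IGF list had passed the filter through the day 12 arrays alone. With no filter on dim values 3 of 39 Wnt genes rose and 0 fell, and 2 of 34 imprinted and IGF genes rose and 1 fell. Ligands of the TGF-beta family that rose were Gdf10 (3.12-fold) and Tgfb3 (at least 1.11-fold, at 3.94 and 4.36), with Ltbp3, which stores the latent ligand in the matrix (4.29-fold), and the receptor Tgfbr2 (2.83-fold); none of the 28 tested members fell. The targets Msx1 and Msx2 had differences of -1.15 and -1.36 and the antagonist Nog one of -1.19, none called (adjusted p = 0.0753, 0.203 and 0.263), and Msx1 was called without day 8 A (0.0238) or with the replicate block (0.0484). Of 30 tested Wnt genes Wnt11, a non-canonical ligand, rose 3.28-fold, Rspo1 rose as given above, Sfrp2, a secreted inhibitor, rose 5.59-fold, and Wnt2 fell. In the retinoid list, 3 of 14 tested members rose: the enzyme Aldh1a2, the receptor and target Rarb (3.38-fold, from 5.98, 5.82 and 5.77 to 6.91 and 8.33) and the target Tgm2. Of 25 tested imprinted and IGF genes, Igfbp7, a binding protein of vessels and matrix, rose at least 4.33-fold with Dcn, and Phlda2 fell. On the probe set that represents it, Igf2 was at 14.40, 14.43 and 14.44 on day 10 and at 14.20 and 14.50 on day 12. The 2 probe sets of Igf2 disagreed, with differences of -0.07 and 1.58. Without day 12 C the calls of Gdf10 (adjusted p = 0.163), Tgfb3 (0.211), Tgfbr2 (0.0633), Aldh1a2 (0.21), Phlda2 (0.135) and Wnt2 (0.535) ended. Wnt11 lost its call without day 10 B (0.0741) or C (0.0857) or day 12 A (0.149) or C (0.17) or with the replicate block (0.065), and Wnt2 also without day 10 A (0.0882), day 10 C (0.0999) or day 12 A (0.0598).

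Of 29 tested genes of fatty acid use and mitochondria, which the maturing heart comes to depend on, 3 rose (10.3%, against 2.88% of all genes tested) and none fell, with a median of 0.12. When all probe sets of each gene were averaged, 6 of the 29 rose. Cd36, the fatty acid transporter, was at 7.28, 7.44 and 7.28 on day 10 and 8.87 and 9.20 on day 12 (3.25-fold), Cox7a1, the muscle isoform of a cytochrome oxidase subunit, rose 4.27-fold, and Ppargc1b, a coactivator of mitochondrial genes, rose 2.96-fold. Cd36 lost its call without day 12 C (adjusted p = 0.161), and Ppargc1b without day 10 A (0.0671) or C (0.181) or day 12 A (0.119) or C (0.42) or with the replicate block (0.0726). Fabp3, the heart fatty acid carrier, had a difference of -0.20. In the glycolysis and hypoxia list 29 of 32 differences were above 0 and the median was 0.53. Car9, a hypoxia-induced carbonic anhydrase, was the 1 call (3.12% of the list), at 4.71 and 6.42, at least 2.96-fold higher. It had passed the filter through the day 12 arrays alone. Pfkfb3 (difference 1.31), Ndrg1 (1.22), Vegfa (1.13), Aldoc (1.03) and Egln3 (1.00), all known to respond to low oxygen, were not called. In 15 of the 32 genes both day 12 arrays lay above those of day 10, against 19.6% of all genes tested.

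Proliferation, ribosome and stem cell genes gave no calls with limma. None of 43 cell cycle genes passed (4 had an unadjusted p under 0.05, all lower); the median was -0.18, 11 differences were above 0, and in 12 genes both day 12 arrays lay below those of day 10 and in 0 above, against 14.1% below over all genes. Cdk4, a G1 kinase, had the largest difference, -0.69 (adjusted p = 0.0683), while Mki67 was at 10.25 to 10.27 on day 10 and at 10.13 and 10.38 on day 12. Cdkn2c, an inhibitor of the G1 kinases, rose at least 1.72-fold, to 5.38 and 4.18. It was the 1 call among 17 inhibitors and p53 targets (5.88%, against 2.88% of all genes). Its filter was passed through the day 12 arrays alone. None of 45 ribosomal protein genes passed (6 with an unadjusted p under 0.05, all lower; median -0.13). None of 33 pluripotency genes passed either (6 with an unadjusted p under 0.05, all higher; median 0.30). Pou5f1, the pluripotency factor Oct4, was at 8.59, 7.08 and 8.05 on day 10 and at 9.94 and 8.49 on day 12 with overlapping groups (difference 1.31, adjusted p = 0.28), and at a mean of 14.30 in growing cells. The same held for 22 primitive streak, 26 stress response and 20 Hox genes, of which 1, 1 and 1 had an unadjusted p under 0.05. Many of the streak and Hox genes passed the filter through earlier days, so their lack of calls says little. Of 29 streak and 33 Hox genes on the array, 26 and 23 were below log2 4 on all 5 compared arrays. With these 5 arrays alone, 2 streak, 9 Hox and 21 pluripotency genes were tested. Then 1 Hox gene was called lower and 1 pluripotency gene higher. Of the remaining lists, 2 of 22 epithelial genes rose (Krt7 and Spint2), 1 of 20 immediate early genes (Ier5) and 1 of 15 interferon and antigen presentation genes (Bst2). These are 9.09%, 5% and 6.67%, against 2.88% of all genes. Krt7 had passed the filter through the day 12 arrays alone. Spint2 lost its call without day 10 B (adjusted p = 0.115), day 10 C (0.0654), day 12 A (0.167) or day 12 C (0.192) or with the replicate block (0.0738), and Ier5 and Bst2 likewise lost theirs without any of these 4 arrays (0.0745 to 0.226 for Ier5 and 0.075 to 0.193 for Bst2), Bst2 also with the replicate block (0.0629).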

How the data were processed

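The deposited values are log2 expression signals made with GCRMA (background correction by probe sequence, normalization and summary of each probe set), per the submitters' processing notes; the version is not given in the sources used here, and the log2 scale was read from the range of the values, 0.86 to 15.86. Biotin-labelled cRNA from total RNA was hybridised to Affymetrix mouse arrays, per the labels. Their number, 2 against 3, limits the precision. Of 45101 probe sets, 34945 named 1 gene in the platform annotation, 932 several, 9160 none, and 64 were controls; 34741 matched RefSeq by Entrez identifier, with no symbol updated. From these values, limma 3.58.1 (R 4.3.3; lmFit and eBayes) was fitted with 1 mean per group to all 16 arrays, giving 10 residual and 3.53 prior degrees of freedom. Genes over log2 4 on at least 2 arrays were tested. A call asked for a difference of at least 1 and for p under 0.05 after Benjamini-Hochberg adjustment across the 10802 genes. Folds are 2 to the power of the difference, or, where every array of the lower group was under 4, computed against 4. For the 15 largest rises and falls, values under 4 were set to 4. They were taken from calls whose groups then did not overlap, ranked by the difference of these values. Named too are the markers Afp, Shox2, Tgm2 and Hbb-y and members of 30 gene lists. The lists, members and markers were chosen with earlier results of these data known. Genes named by single alternatives or as shared probe sets were picked from their values. The scripts were tested on simulated data. Control means were compared by two-sided exact permutation tests. The letters were checked for pairing: deviations from the group means correlated at 0.32 between the A arrays and 0.06 between the C arrays. Between day 12 C and day 10 B, which differ in letter, the value was 0.34. The hybridization spike-ins followed the letter, and day 12 had no B array. What arrays of a letter share was not tested. The main fit held no letter, and the replicate block is given as an alternative. Alternatives covered the filter, scaling, spread, probe set choice, thresholds, a replicate block and leaving out single arrays. The arrays left out singly were each day 10 and day 12 array and day 8 replicate A. No other array was left out singly, so their part in the shared spread was not tested in this way.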

Additional observations from a re-analysis of the deposited data

Results flagged for a closer look

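Outside the comparison of named genes, 41 of 1685 tested probe sets to which the annotation used here gives no gene passed the same limma test, 34 higher and 7 lower on day 12. They were set aside because they cannot be read as genes, and the largest difference among them was 4.33 on the log2 scale (2.58, 2.79 and 2.57 on day 10, 6.25 and 7.70 on day 12).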

How the results depend on the processing

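The count of 331 calls (311 higher, 20 lower) depended on the limits. It was 142 (129 higher, 13 lower) with the dim limit at log2 6, 191 (184 and 7) at an adjusted p under 0.01, 63 (62 and 1) with a test against a difference of 1 (treat), 179 (170 and 9) with the 5 compared arrays alone, and 512 (483 and 29) over all probe sets. The falls alone moved to 13 without the dim filter, 38 after a further quantile normalization, 34 after a common median and 49 with no minimum difference. Leaving out 1 array of either group gave 60 to 478 calls, 58 to 440 higher and 2 to 47 lower. Without day 8 replicate A there were 380 calls with 33 lower, and 328 of the 331 were shared. With the replicate block there were 306 calls (289 higher, 17 lower), of which 277 were shared, so the letters moved the count by less than 1.5 times; its adjusted p stands beside the named genes whose calls it changed. No named gene turned its sign with a call under these alternatives. Among all 331 calls, 5 turned their sign without the dim filter, whether called there or not. In each of several other settings 1 did, such as the 5 compared arrays alone. The control differences kept their direction; the poly-A difference was 1.48 over the 12 probe sets of 1 version, an alternative chosen after seeing the data. Signals near the dim limit, which make up 100 of the 311 rises on day 10, give bounds and not folds.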
